A study of Sus scrofa with 7 samples.

Results

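The RNAs of the pig mitochondrial genome were followed in 3 lines of porcine extra-embryonic endoderm cells (pXEN cells), 2 lines of porcine naïve-like ESCs (nESCs) and 2 lines of porcine primed ESCs (pESCs). The rows placed on the mitochondrial genome (MT) were taken, which are 38 of the 29510 genes listed and comprise 13 mRNAs, 2 rRNAs, 22 tRNAs and 1 transcript without annotation. The pXEN lines were derived from the inner cell masses of parthenogenetic blastocysts and stood at passages 26, 26 and 23. The nESC lines stood at passages 21 and 22, and the pESC lines, which the labels describe as converted from naïve-like cells, at passage 20. There was 1 library per line, from RNA depleted of rRNA, and all lines grew on mouse feeder cells, which by the study's methods were embryonic fibroblasts (MEF) for pXEN cells and nESCs and STO cells for pESCs. By the study's methods, the pXEN medium held the tetracycline minocycline at 2 µM with CHIR99021 at 1 µM, (S)-(+)-dimethindene maleate at 2 µM and Y27632 at 2 µM. The nESC medium held the tetracycline doxycycline, at 2 mg/mL in the printed unit, with CHIR99021 at 3 µM, PD0325901 at 1 µM and SB431542 at 2 µM, and the pESC medium held none of these compounds. Each medium belonged to a single cell type, so the effects of medium, line and cell type on mitochondrial RNA cannot be told apart here, nor can that of the kind of feeder in comparisons with pESCs.

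The mitochondrial genome of mammals is a small circle that encodes core subunits of the respiratory chain and of ATP synthase, together with the rRNAs and tRNAs needed to translate them inside the organelle. Both strands are transcribed as long precursors, and the excision of the tRNAs that lie between the other genes releases the mRNAs and rRNAs. All other subunits, the mitochondrial ribosomal proteins and the factors that copy, process and translate mitochondrial RNA are encoded in the nucleus. Tetracyclines bind the bacterial ribosome and are known to inhibit translation by the related mitochondrial ribosome, and embryonic cells are known to change their use of respiration as they move between states of pluripotency and into extra-embryonic lineages.

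The libraries held between 10408164 and 12995720 reads counted on genes. All 10 tested markers of extra-embryonic endoderm were higher in pXEN cells than in either ESC type by edgeR's quasi-likelihood test, with GATA4 at 188 to 239 FPKM in pXEN lines and at most 0.0834 FPKM in ESC lines. FPKM divides the fragments on a gene by its length and by a total for the library. The markers of pluripotent cells did not follow the labels as a list. Of 9 tested, 5 were higher and 3 lower in pXEN cells than in nESCs (median log2 fold change 1.56), and 4 were higher and 5 lower than in pESCs (median −3.16). SOX2 stood at 102 to 154 FPKM in ESC lines and at most 1.98 FPKM in pXEN lines, while POU5F1 was at or near 0 in all 7 libraries and NANOG was near 0 in nESCs (0 and 0.148 FPKM). The study, however, reported OCT4, the protein of POU5F1, and NANOG in nESCs by Western blot, and OCT4 in pESCs by staining. Why these rows differ from that was not tested, nor was whether the annotation or the placing of reads misses these genes. The pXEN line 2 stood apart: its summed CPM (counts divided by the library total, on a common scale) over the 12 fibroblast markers matched was 519, against 12.6 and 30.9 in pXEN lines 1 and 3, 38.2 and 38.0 in the nESC lines and 219 and 268 in the pESC lines. Of the 10 fibroblast markers tested, 5 were higher and 2 lower in pXEN cells than in nESCs (median log2 fold change 4.26), 1 was higher and 4 were lower than in pESCs (−1.23), and 4 were higher and 1 lower in pESCs than in nESCs (2.76). In pXEN line 2, 11 of the 12 had more than 3 counts, against 7 and 8 in pXEN lines 1 and 3. The numbers were 4 and 6 in the nESC lines and 9 and 10 in the pESC lines. FAP was at 0 in both ESC types. The pXEN line 2 also had the highest mitochondrial share of the pXEN lines, and the part of other cells in that was not tested. In bulk samples, fewer cells of a type and less RNA per cell cannot be told apart, and whether reads from mouse feeder mitochondria or from nuclear copies of mitochondrial DNA were counted on these rows was not tested.

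Mitochondrial RNA took the smallest mean share of the library in pXEN cells and the largest in nESCs. The 38 rows held 4.80%, 6.41% and 4.65% of all counts in pXEN lines 1 to 3, 8.05% and 8.15% in the nESC lines, and 6.27% and 6.66% in the pESC lines. Both nESC lines thus lay above all other lines, and pESC line 1 lay below pXEN line 2 and above the other pXEN lines. The means were 5.29% ± 0.976 (SD, n = 3), 8.10% ± 0.0661 (n = 2) and 6.47% ± 0.272 (n = 2). Counting error was small beside the spread between pXEN lines: the 95% Wilson interval of nESC line 2, for example, ran from 8.13% to 8.16%. Over the 3 cell types, the type accounted for 82.7% of the variance of the share (exact permutation test over 210 assignments, p = 0.0381, smallest possible 0.00952). In pairs, the share was lower in pXEN cells than in nESCs by 2.81 percentage points (exact permutation test, two-sided, p = 0.1, which is the lowest value that 3 lines against 2 can give). The difference between pXEN cells and pESCs was −1.18 points (exact permutation test, p = 0.3), or −0.693 points as a share of summed FPKM, where pXEN line 2 lay above both pESC lines, and that between pESCs and nESCs was −1.63 points (exact permutation test, p = 0.333, the smallest possible). Without pXEN line 2 the difference was −3.37 points to nESCs and −1.74 points to pESCs. The lower share against pESCs was not shared by most mRNAs. COX1 had a mean of 9038 CPM in pXEN cells and 23031 CPM in pESCs. Of the 13 mRNAs, 10 had log2 fold changes above 0 in pXEN cells against pESCs by edgeR, whose scaling differs from that of the share.

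**Figure D1:**
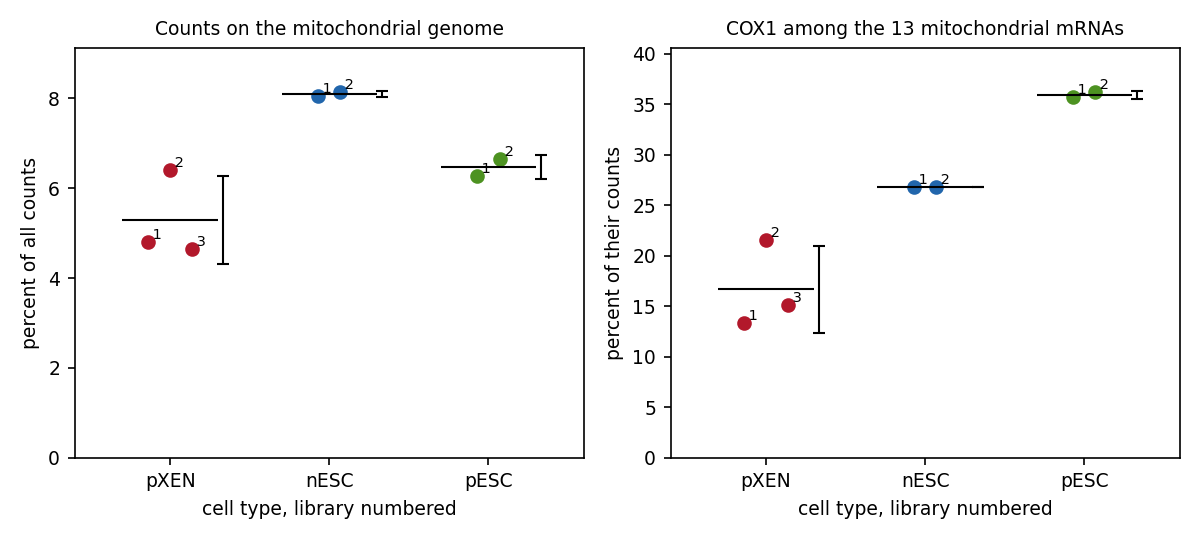
Left, percent of all counts that fell on the 38 mitochondrial rows; right, percent of the counts of the 13 mitochondrial mRNAs that fell on COX1. Points are libraries with their line number, horizontal lines are means and bars are SD; the nESC lines are highest on the left (8.05% and 8.15%), the pESC lines are highest on the right (35.7% and 36.2%), and pXEN line 2 lies above the other pXEN lines in both.

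The mRNAs made up between 98.9% and 99.4% of mitochondrial counts in each library, and between 4 and 6 of them were among the 10 genes with the most counts. Per length, the mRNAs for the subunits of cytochrome c oxidase and for ATP6 had the highest means in all 3 cell types, but the leading mRNA differed. ATP8 had the lowest listed means, but it overlaps ATP6 and how shared reads were counted is not given in the sources used here, so its place is uncertain, as is that of ATP6 against its neighbours. In pXEN cells it was ATP6, at 15402 ± 1036 FPKM (SD, n = 3), whose lowest library lay above the highest library of COX2, the next in order. From COX2 (11086 FPKM) through COX3 (9014 FPKM), COX1 (6267 FPKM) and CYTB (4580 FPKM), neighbouring mRNAs overlapped between pXEN lines. In nESCs COX3 led at 14420 ± 717 FPKM (n = 2), above COX1 at 12948 FPKM, ATP6 at 12932 FPKM and COX2 at 12529 FPKM, each separated from the next. In pESCs COX1 led at 14141 ± 1059 FPKM (n = 2), above COX3 and ATP6 at 11180 and 10787 FPKM, which overlapped.

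**Figure D2:**
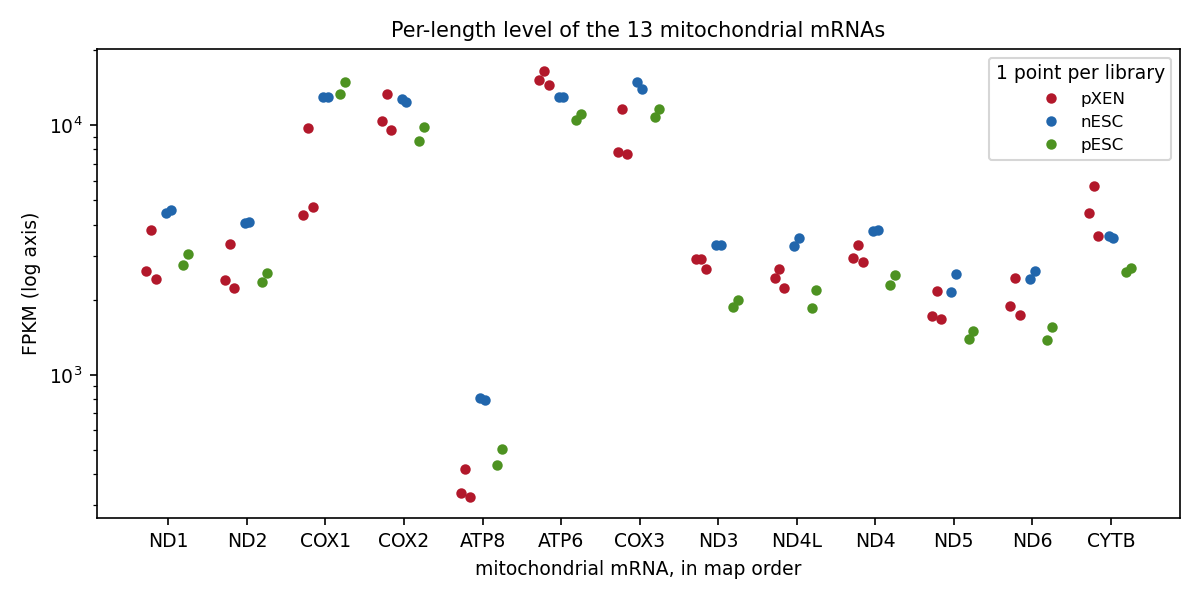
FPKM (log axis) of the 13 mitochondrial mRNAs in map order, with 1 point per library. COX1 is lowest in the pXEN lines (4364 to 9741 FPKM), ATP6 and CYTB are highest in pXEN cells on average, and ATP8, whose level is uncertain because it overlaps ATP6, has the lowest values in every cell type.

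All 13 mRNAs passed the filter on low counts and were tested with the whole table, in which each library is scaled by TMM, a factor set so that most genes do not differ. Between pXEN cells and nESCs, 7 of 13 mRNAs were called at an adjusted p below 0.05, all lower in pXEN cells (ND1, ND2, COX1, ATP8, COX3, ND4L and ND4). Of the 17447 genes tested, 54.5% were called in this comparison, 28.3% higher and 26.2% lower in pXEN cells. The median log2 fold change of the 13 mRNAs was −0.35, against 0.00 over all genes tested. Between pXEN cells and pESCs, 6 of 13 were called, with ATP6, ND3, ND4, ND6 and CYTB higher and COX1 lower in pXEN cells, where 48.3% of all genes passed, 23.9% in the former direction and 24.4% in the latter. The median over the mRNAs was 0.29, against −0.01 over all genes. Between pESCs and nESCs, 7 of 13 were called, all lower in pESCs (ND2, ATP8, ND3, ND4L, ND4, ND5 and ND6), where 32.2% of all genes were called, 19.0% higher and 13.3% lower. The median here was −0.67, against 0.01 over all genes. The pXEN and pESC comparisons with nESCs share the nESC libraries. The counts of called mRNAs rested on single lines: leaving out pXEN line 2 raised them to 12, 10 and 12, while leaving out nESC line 2 lowered the first to 1, leaving out either pESC line lowered the second to 2, and leaving out pESC line 1 lowered the third to 3. The number of mRNAs called also moved with the fit. Upper-quartile scaling called 10 lower in pXEN cells than in nESCs. Limma on log2(FPKM + 1) called 2 higher and 1 lower in pXEN cells than in pESCs. A fit of pESCs and nESCs alone called 12 lower in pESCs. The CPM of the libraries did not overlap between the groups for 12, 9 and 13 of the mRNAs, against 72.2%, 69.2% and 72.6% of all genes tested.

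**Figure D3:**
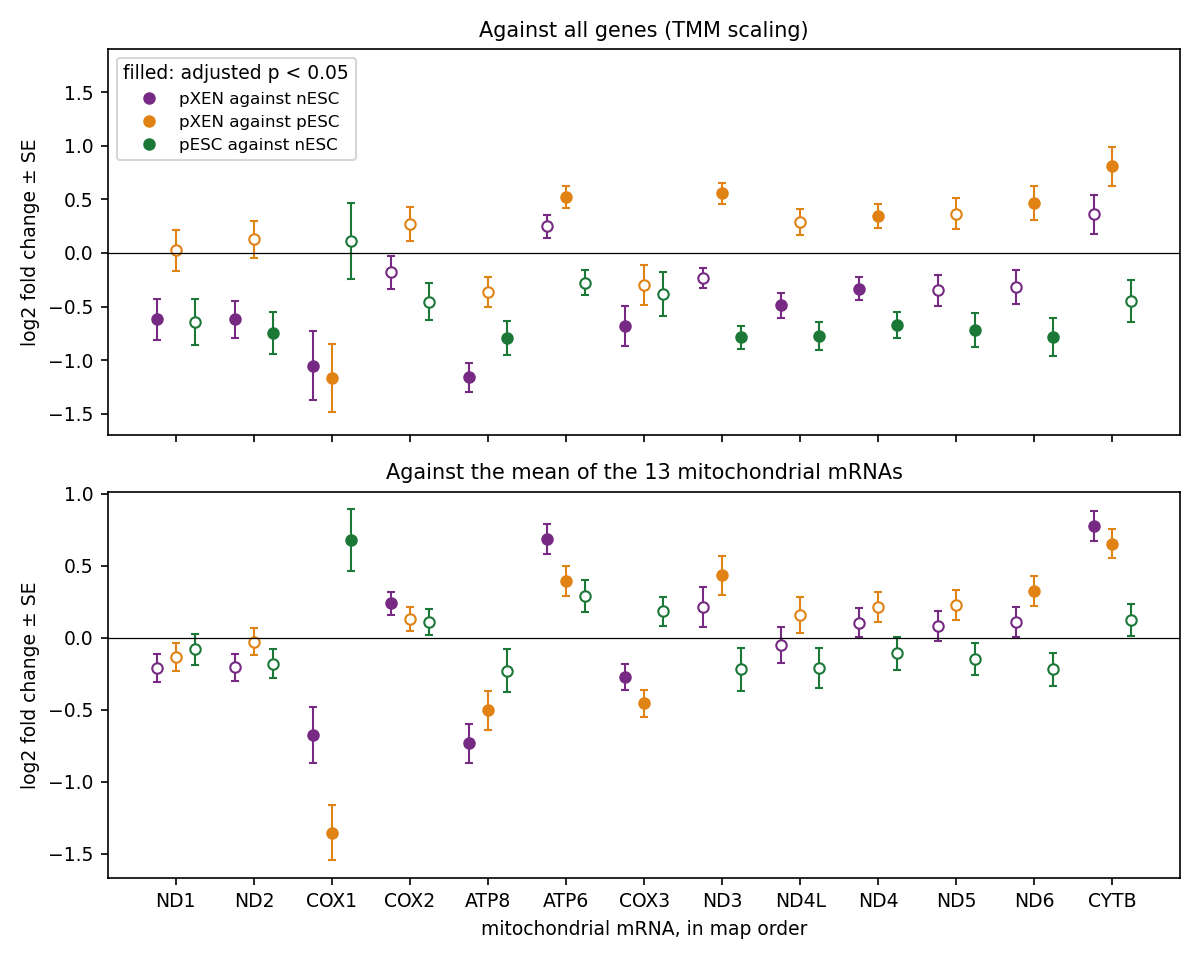
Log2 fold change ± SE of each mitochondrial mRNA in the 3 comparisons, in map order; filled points are called (adjusted p below 0.05). The upper panel scales each library on all genes and the lower panel on the geometric mean of its 13 mitochondrial mRNAs; in the lower panel COX1 lies at −0.68 and −1.35 in the pXEN comparisons and at 0.68 between pESCs and nESCs.

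COX1, COX2 and COX3 encode the catalytic core of cytochrome c oxidase (complex IV), which passes electrons to oxygen. COX1 (MT:6511-8055, Sscrofa10.2, plus strand) stood at 4364, 9741 and 4695 FPKM in the pXEN lines, 12944 and 12952.5 FPKM in the nESC lines and 13392 and 14889.5 FPKM in the pESC lines. All pXEN lines lay below all ESC lines, with line 2 nearest to them. The log2 fold change was −1.05 ± 0.32 (SE) against nESCs (edgeR adjusted p = 0.0235) and −1.16 ± 0.32 against pESCs (edgeR adjusted p = 0.0176), and 0.11 ± 0.35 between pESCs and nESCs (edgeR adjusted p = 0.843). Without pXEN line 2 the pXEN differences widened to −1.52 and −1.64. The call against nESCs was lost when pXEN line 1 or 3 or either nESC line was left out (adjusted p = 0.0607 to 0.0882), and that against pESCs when either pESC line was (0.0602 and 0.0927). COX3 (MT:9800-10583) stood at 7838, 11563.5 and 7641 FPKM in pXEN lines, 14927 and 13913 FPKM in nESC lines and 10799 and 11561 FPKM in pESC lines. Against nESCs it was lower in pXEN cells by 0.68 ± 0.18 on the log2 scale (edgeR adjusted p = 0.0146; 0.0804 and 0.0503 without nESC line 1 or 2). COX2 (MT:8203-8890) was not called in any comparison, with log2 fold changes of −0.18, 0.27 and −0.45. The ratio of COX1 to COX2 in FPKM was 0.548 ± 0.164 (SD, n = 3) in pXEN cells, 1.03 ± 0.0182 (n = 2) in nESCs and 1.53 ± 0.0315 (n = 2) in pESCs, and the ranges of the 3 types did not overlap.

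ATP6 and ATP8 encode membrane subunits of ATP synthase (complex V) and lie in overlapping frames, at MT:9120-9800 and MT:8959-9162, with 43 bases in common. ATP6 stood at 15106, 16555 and 14547 FPKM in pXEN lines, 12943 and 12920.3 FPKM in nESC lines and 10537 and 11037 FPKM in pESC lines. The 3 types did not overlap, and the order was pXEN cells, nESCs, pESCs. Against pESCs the log2 fold change of pXEN cells was 0.52 ± 0.10 (SE, edgeR adjusted p = 0.00431), and limma on log2(FPKM + 1) gave an adjusted p of 0.121. Against nESCs it was 0.25 ± 0.10 (edgeR adjusted p = 0.0765). ATP8 stood at 335, 420.3 and 325 FPKM in pXEN lines, 811 and 796 FPKM in nESC lines and 434 and 502 FPKM in pESC lines. ATP8 was lower in pXEN cells than in nESCs, with a log2 fold change of −1.16 ± 0.14 (edgeR adjusted p = 0.000248), and in pESCs than in nESCs, with −0.79 ± 0.15 (edgeR adjusted p = 0.0064; 0.0679 without pESC line 1). In the FPKM ratio of ATP8 to ATP6 the types were 0.0233 ± 0.00180 (SD, n = 3) for pXEN cells, 0.0621 ± 0.000759 (n = 2) for nESCs and 0.0433 ± 0.00308 (n = 2) for pESCs. How the counting treated reads that fall on both genes is not given in the sources used here, so the level of ATP8 against ATP6 is uncertain, and the ratio is compared only between libraries.

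CYTB (MT:15342-16481) encodes cytochrome b, the only mitochondrially encoded subunit of complex III, which passes electrons from ubiquinol to cytochrome c. It stood at 4453, 5685 and 3601 FPKM in pXEN lines, 3584 and 3521 FPKM in nESC lines and 2579 and 2685 FPKM in pESC lines. All pXEN lines lay above the pESC lines, and pXEN line 3 lay just above the nESC lines on FPKM. On CPM that line lay below them, at 3956 CPM against 4381 and 4347 CPM. The log2 fold change of pXEN cells was 0.81 ± 0.18 (SE) against pESCs (edgeR adjusted p = 0.00763) and 0.36 ± 0.18 against nESCs (edgeR adjusted p = 0.125). The former call was lost when either pESC line was left out (adjusted p = 0.061 and 0.052).

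The 7 ND mRNAs encode subunits of the membrane arm of complex I, which takes electrons from NADH. All 7 were highest in nESCs on the mean FPKM. ND1 (MT:3922-4878) stood at 2605, 3794 and 2417 FPKM in pXEN lines, 4428 and 4577 FPKM in nESC lines and 2758 and 3059 FPKM in pESC lines. Both nESC lines lay above the rest, and the other types overlapped. ND1 was lower in pXEN cells than in nESCs by 0.62 ± 0.19 on the log2 scale (edgeR adjusted p = 0.0246), and ND2 (MT:5087-6130) by 0.62 ± 0.17 (edgeR adjusted p = 0.0165). The call on ND1 was lost without pXEN line 1 or 3 or either nESC line (adjusted p = 0.0626 to 0.105), and that on ND2 without pXEN line 1 or either nESC line (0.0552 to 0.0759). Against pESCs the fold changes of ND1 and ND2 in pXEN cells were 0.02 and 0.13 and were not called. The sign for ND1 turned under upper-quartile scaling, and both turned without pXEN line 2 (−0.21 and −0.076). In pESCs against nESCs the log2 fold changes were −0.64 for ND1 (edgeR adjusted p = 0.0501, not called) and −0.75 for ND2 (edgeR adjusted p = 0.0206, a call lost without any 1 of the nESC or pESC lines, 0.0837 to 0.126). They were −0.79 for ND3, −0.77 for ND4L, −0.67 for ND4, −0.71 for ND5 and −0.78 for ND6, all called (edgeR adjusted p = 0.00113 to 0.0114). The calls on ND5 and ND6 were lost without nESC line 2 or either pESC line (adjusted p = 0.0508 to 0.0918), and those on ND3, ND4L and ND4 were kept without any single line. In pXEN cells ND3 was 0.55 ± 0.10 (SE) above pESCs on the log2 scale (edgeR adjusted p = 0.00217) and −0.23 ± 0.09 from nESCs (edgeR adjusted p = 0.0693). The calls on ND4 and ND6 against pESCs were lost without any single line other than pXEN lines 2 and 3 (adjusted p = 0.0542 to 0.232), and against nESCs the call on ND4L was lost without nESC line 2 (0.067) and that on ND4 without pXEN line 1 or 3, either nESC line or pESC line 2 (0.051 to 0.117).

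ND6 (MT:14739-15266) is the only mRNA on the minus strand and shares 17 bases with ND5 on the other strand. It stood at 1889, 2439 and 1732 FPKM in pXEN lines, 2412 and 2598 FPKM in nESC lines and 1378 and 1559 FPKM in pESC lines. The FPKM ratio of ND6 to ND5 was 1.09 ± 0.0459 (SD, n = 3) in pXEN cells, 1.07 ± 0.0671 (n = 2) in nESCs and 1.02 ± 0.0372 (n = 2) in pESCs, and the ranges of the 3 types overlapped. The libraries were directional, but the strand setting of the counting is not given in the sources used here, so reads from the strand opposite to ND6 cannot be told apart from its own.

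To separate the balance among the mRNAs from their total, the whole table was also fitted with each library scaled to the geometric mean of its 13 mitochondrial mRNA counts. This fit was chosen after the values were seen, and it moved the median of all genes to 0.44, −0.13 and 0.58 in the 3 comparisons. COX1 held 13.4%, 21.6% and 15.1% of the counts of the 13 mRNAs in the pXEN lines, 26.9% in both nESC lines, and 35.7% and 36.2% in the pESC lines. The 3 types did not overlap, and COX1 alone took more of these counts in pESCs than ATP6 and CYTB together did in any line. On this scale COX1 was lower in pXEN cells by 0.68 ± 0.19 (SE) on the log2 scale against nESCs (edgeR adjusted p = 0.0173) and by 1.35 ± 0.19 against pESCs (edgeR adjusted p = 0.000652). It was the only mRNA called between pESCs and nESCs, at 0.68 ± 0.21 above (edgeR adjusted p = 0.0343), and without any of the 4 ESC lines in turn no mRNA was called between these types.

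CYTB held 10.1%, 9.29% and 8.56% of the mRNA counts in pXEN lines, 5.49% and 5.39% in nESC lines and 5.07% and 4.82% in pESC lines. Relative to the mean of the 13 mRNAs it was 0.78 ± 0.10 (SE) higher in pXEN cells than in nESCs on the log2 scale (edgeR adjusted p = 0.000328) and 0.66 ± 0.10 higher than in pESCs (edgeR adjusted p = 0.00114). ATP6 held 20.4%, 16.2% and 20.7% in pXEN lines, 11.8% in both nESC lines and 12.4% and 11.8% in pESC lines. It was 0.69 ± 0.10 higher against nESCs (edgeR adjusted p = 0.000663) and 0.40 ± 0.10 higher against pESCs (edgeR adjusted p = 0.0137). ATP8 fell by 0.73 and 0.50 and COX3 by 0.27 and 0.46 in pXEN cells on this scale, all called. COX2 was called against nESCs (0.24 ± 0.08, edgeR adjusted p = 0.034), and ND3 and ND6 against pESCs (0.43 and 0.32). In all, 6, 7 and 1 of the 13 mRNAs were called in the 3 comparisons, where 51.2%, 42.2% and 39.2% of all genes were. Of the mRNAs 3 were higher and 3 lower in pXEN cells than in nESCs, where 37.3% and 13.9% of all genes were, and 4 were higher and 3 lower than in pESCs, where 17.9% and 24.3% were. The 1 mRNA between pESCs and nESCs was higher, as were 34.8% of all genes, while 4.38% were lower. As a share of the mRNA counts, the libraries of the groups did not overlap for 9, 13 and 13 mRNAs, against 65.5%, 59.4% and 73.5% of all genes measured against the same sum. The shares of the 13 mRNAs have a fixed sum in each library, so the differences in COX1 alone move the others the opposite way. Other genes are not bound by that sum and are an uneven reference. Scaling to the geometric mean likewise centres the 13 mRNAs on their own mean while all genes moved. The split into higher and lower mRNAs is thus in part set by the fit. That split also depended on how the mRNAs were averaged. With each library scaled to the sum of the 13 mRNAs, 2 were higher and 3 lower in pXEN cells than in nESCs (35.5% and 13.1% of all genes), 7 were higher and 1 lower than in pESCs (21.7% and 16.9%), and 0 were higher and 3 lower in pESCs than in nESCs (21.2% and 5.22%). On that scale COX1 was no longer called between pESCs and nESCs (0.42, edgeR adjusted p = 0.144), where ND2, ND5 and ND6 were called lower, and ATP8 and COX3 were no longer called between pXEN cells and pESCs (adjusted p = 0.252 and 0.121). On that scale COX1, ATP6 and CYTB were called in the same direction as on the geometric mean in both pXEN comparisons. With single lines left out on the geometric mean, the calls on CYTB held in both comparisons, as did those on ATP6 and ATP8 against nESCs and on COX1 and COX3 against pESCs. The call on COX1 against nESCs was lost without pXEN line 3 or either nESC line (adjusted p = 0.0516 to 0.0814), and that on ATP6 against pESCs without either pESC line (0.0742 and 0.124). The call on COX1 between pESCs and nESCs was lost without any 1 of these 4 lines (0.118 to 0.14), and each of the other calls on this scale was lost without at least 1 line. Without pXEN line 2 the numbers of mRNAs called were 10, 11 and 7, without pXEN line 1 the second was 4, without either nESC line the first was 3, and without either pESC line the second was 3.

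The rRNAs are the scaffold of the mitochondrial ribosome, and their rows count only what rRNA depletion left, between 0.368% and 0.631% of mitochondrial counts. The larger rRNA (MT:2274-3844) had 1480, 2416 and 1647 counts in pXEN lines, 3758 and 4156 counts in nESC lines and 2899 and 4082 counts in pESC lines. In pXEN cells it was lower than in nESCs, with a log2 fold change of −0.97 ± 0.19 (SE, edgeR adjusted p = 0.00296), and than in pESCs, with −0.64 ± 0.19 (edgeR adjusted p = 0.0238). The latter call was lost without pXEN line 1 or 3 or pESC line 2 (adjusted p = 0.0689 to 0.202). The smaller rRNA (MT:1246-2205) had 452, 557 and 369 counts in pXEN lines, 545 and 674 counts in nESC lines and 873 and 1374 counts in pESC lines. In pXEN cells this rRNA was lower than in pESCs (−0.997 ± 0.22, edgeR adjusted p = 0.00696, and 0.0769 without pESC line 2) and was not called against nESCs (−0.27 ± 0.23, edgeR adjusted p = 0.337). The FPKM ratio of the smaller to the larger rRNA was 0.415 ± 0.0740 (SD, n = 3) in pXEN cells, 0.251 ± 0.0198 (n = 2) in nESCs and 0.522 ± 0.0410 (n = 2) in pESCs, with the nESC lines below all others. Whether depletion removed the same share of each rRNA in every library was not tested. The transcript without annotation (MT:1-1175), which lies before the tRNA gene numbered 1, had 810, 1576 and 904 counts in pXEN lines, 2484 and 2280 counts in nESC lines and 1814 and 2206 counts in pESC lines. Its level fell by 0.995 ± 0.22 on the log2 scale in pXEN cells against nESCs (edgeR adjusted p = 0.00601) and was not called in the other comparisons.

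The tRNA genes carried between 0.0757% and 0.169% of mitochondrial counts, with a median of 3.86 to 49.1 FPKM per library against 2355 to 3810 FPKM for the mRNAs. How well the libraries kept RNAs this short was not tested, nor was whether these counts came from longer precursors. The counts are therefore not a measure of the level of finished tRNAs. Of the 22 genes, which are 59 to 75 bases long, 14 passed the filter and 8 did not, and between 1 and 7 genes per library had a count of 0, which allows up to 3 counts (0.231 to 0.288 CPM, counting error only). The files do not name the amino acid of each tRNA gene, so the genes are given by position and by their number in map order. Between pXEN cells and nESCs, 6 of the 14 tested were lower in pXEN cells and 0 higher by edgeR. The numbers were 5 and 0 by DESeq2's Wald test, 3 and 0 with a block for the replicate number and 7 and 0 under upper-quartile scaling. The 6 are 42.9% of those tested, where 26.2% of all genes were lower. Between pXEN cells and pESCs, 8 were higher in pXEN cells and 2 were lower, where 23.9% and 24.4% of all genes were. Between pESCs and nESCs, 1 was higher and 10 were lower in pESCs, where 19.0% and 13.3% of all genes were. Some of these genes passed the filter only through the group where they are high: the gene at MT:8135-8202 had 26 and 56 counts in nESC lines and at most 10 counts elsewhere. With 10 counts required in every library, 6 tRNA genes were left, of which 0 were higher and 3 lower, 3 higher and 2 lower, and 1 higher and 4 lower in the 3 comparisons. Leaving out nESC line 2 lowered the first number of calls to 1 and the third to 5, and leaving out pESC line 1 lowered the second and the third to 5.

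The tRNA genes numbered 9 and 10, singled out after their values were seen, were the 2 called lower in pXEN cells than in pESCs, and number 10 was the 1 called higher in pESCs than in nESCs. Against nESCs their pXEN differences (−1.59 and −0.93) had the sign of most tRNA genes, and without pXEN line 2 they were −2.04 and −2.07, both called (edgeR adjusted p = 0.0015 and 0.000756). The genes at MT:8891-8957 and MT:15267-15335 also had estimates below 0 against pESCs (−0.50 and −0.66, not called). Numbers 9 and 10 lie next to each other on the minus strand, at MT:6272-6346 and MT:6379-6444 with 32 bases between them, among the 5 tRNA genes between ND2 and COX1. The gene at MT:6272-6346 had 26, 87 and 50 counts in pXEN lines, 157 and 196 counts in nESC lines and 295 and 579 counts in pESC lines. The gene at MT:6379-6444 had 10, 60 and 14 counts in pXEN lines, 56 and 59 counts in nESC lines and 383 and 615 counts in pESC lines. Both pESC lines were highest for both genes, and pXEN line 2 was the highest pXEN line. The latter gene was lower in pXEN cells than in pESCs by 3.89 ± 0.57 on the log2 scale (SE, edgeR adjusted p = 0.00093; −5.03 without pXEN line 2) and higher in pESCs than in nESCs by 2.96 ± 0.63 (edgeR adjusted p = 0.00918), a call lost without either nESC line or pESC line 2 (adjusted p = 0.0581 to 0.0734). The former was lower in pXEN cells than in pESCs by 2.73 ± 0.42 (edgeR adjusted p = 0.00109), and its difference between pESCs and nESCs was 1.15 ± 0.44 (edgeR adjusted p = 0.0836). The other 20 tRNA genes together were lowest in pESCs, at 20.2 and 20.7 CPM, against 35.5, 36.9 and 39.1 CPM in pXEN lines and 69.2 and 86.4 CPM in nESC lines. The other 3 tRNA genes between ND2 and COX1 followed these 20, with 0.767 ± 0.00384 CPM (SD, n = 2) in pESCs, 3.16 ± 0.544 CPM (n = 3) in pXEN cells and 6.93 ± 0.936 CPM (n = 2) in nESCs. Without strand information, counts on the minus-strand genes cannot be told apart from those of the opposite strand.

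**Figure D4:**
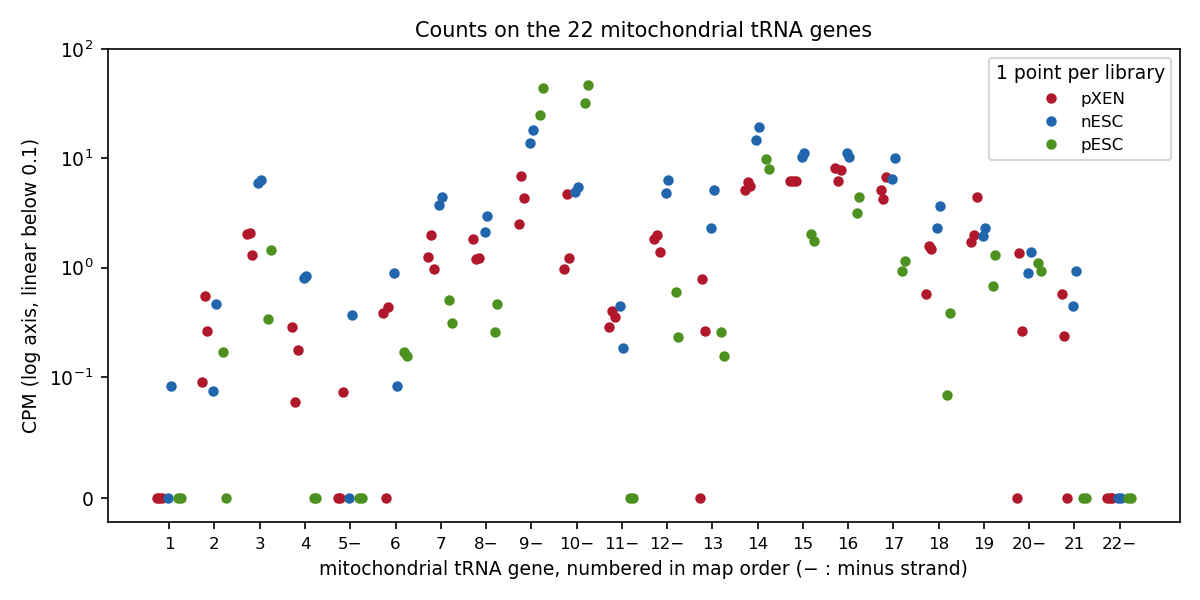
CPM of the 22 mitochondrial tRNA genes by number in map order, on a log axis that is linear below 0.1, with 1 point per library and a minus sign for genes on the minus strand. Genes 9 and 10 are highest in the pESC lines, while the summed CPM of the other 20 genes is lowest there (20.2 and 20.7).

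The nuclear subunits of the same complexes were examined for comparison. Of 65 nuclear respiratory subunits tested, 4 were higher and 36 lower in pXEN cells than in nESCs, with a median log2 fold change of −0.49 and against the 28.3% and 26.2% of all genes given above. Against pESCs, 9 were higher and 5 lower (median −0.09), where 23.9% and 24.4% of all genes were, and the 21.5% called in either direction stood against 48.3% of all genes. This balance turned over to 9 and 26 without pXEN line 2, and to 6 and 12 under upper-quartile scaling. In pESCs against nESCs 24 were lower and 0 higher by edgeR (median −0.39), where 13.3% and 19.0% of all genes were, and 42 and 1 without pXEN line 2. The medians of the mitochondrial mRNAs in the same comparisons were −0.35, 0.29 and −0.67. By complex, the numbers higher and lower in pXEN cells than in nESCs were 3 and 18 of 32 for complex I, 1 and 1 of 4 for complex II, 0 and 6 of 7 for complex III, 0 and 5 of 10 for complex IV and 0 and 6 of 12 for complex V (0 and 10 without pXEN line 2). Against pESCs they were 3 and 3, 1 and 1, 0 and 1, 3 and 0, and 2 and 0, and without pXEN line 2 they were 3 and 10, 1 and 1, 0 and 5, 3 and 3, and 2 and 7. In pESCs against nESCs none of these complexes held a member that was higher, and 12, 1, 4, 4 and 3 members were lower, while without pXEN line 2 there was 1 higher, in complex I, and 19, 2, 7, 7 and 7 were lower.

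The levels of the mitochondrial and the nuclear subunits of a complex were set side by side as a ratio. For complex III the ratio of the CYTB level to the summed level of the 7 nuclear subunits matched of 9 listed, in FPKM, was 5.05 ± 0.350 (SD, n = 3) in pXEN cells, 2.10 ± 0.0471 (n = 2) in nESCs and 2.30 ± 0.00201 (n = 2) in pESCs. UQCR11, a small subunit, was lower in pXEN cells by 2.05 ± 0.25 (SE) on the log2 scale against nESCs (edgeR adjusted p = 0.000265) and by 1.36 ± 0.25 against pESCs (edgeR adjusted p = 0.00265). UQCRFS1, the Rieske iron-sulfur protein, was lower against nESCs in pXEN cells by 1.15 and in pESCs by 0.94. The corresponding ratio, also over matched subunits, for complex V was 5.48 ± 0.275 in pXEN cells, 3.68 ± 0.204 in nESCs and 3.73 ± 0.0519 in pESCs. For complex IV it was lowest in pXEN cells, at 12.1 ± 1.32 against 15.9 ± 0.541 and 17.8 ± 0.153. For complex I it was 8.59 ± 0.317, 8.83 ± 0.932 and 7.27 ± 0.0283, where pXEN cells and nESCs overlapped. Within complex I, NDUFB4 and NDUFB11, accessory subunits of the membrane arm, were higher in pXEN cells than in both ESC types (0.75 and 0.67 against nESCs, 1.03 and 1.07 against pESCs), while NDUFS4 and NDUFV1 were lower than in nESCs (−1.29 and −1.13). SDHA, the flavoprotein of complex II, which has no mitochondrially encoded subunit, was lower in pXEN cells by 1.21 and 0.41.

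Of 28 tested genes of mitochondrial RNA processing and stability, 21 were lower and none higher than in nESCs (median log2 fold change −0.89). Against pESCs 15 were lower and 1 higher (median −0.46), and 12 were lower and none higher in pESCs than in nESCs (median −0.37). The shares called were 75.0%, 57.1% and 42.9%, against 54.5%, 48.3% and 32.2% of all genes, of which 26.2%, 24.4% and 13.3% were lower. LRPPRC, which binds and stabilizes mitochondrial mRNAs, stood at 33.6, 42.5 and 33.2 FPKM in pXEN lines, 111 and 102 FPKM in nESC lines and 104 and 114 FPKM in pESC lines. It was lower in pXEN cells by 1.55 ± 0.13 (SE) on the log2 scale against nESCs (edgeR adjusted p = 4.2e-05) and by 1.57 ± 0.13 against pESCs (edgeR adjusted p = 6.1e-05). PTCD2 and MTO1, a tRNA-modifying enzyme, were the lowest called against nESCs (−2.09 and −2.08), and ELAC2, which cuts the 3′ ends of tRNAs, and GRSF1, an RNA granule protein, against pESCs (−1.76 and −1.57). REXO2, an oligoribonuclease, was the gene higher in pXEN cells than in pESCs (0.95). SLIRP, the partner of LRPPRC, had at most 3 counts in any library and was not tested.

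The list for transcription and replication of mitochondrial DNA held 1 higher and 5 lower of 16 in pXEN cells against nESCs (median −0.30), 2 and 3 against pESCs (−0.22), and 0 and 2 in pESCs against nESCs (−0.20). Its shares called, 37.5%, 31.2% and 12.5%, were below the 54.5%, 48.3% and 32.2% of all genes. TFAM, which packages mitochondrial DNA and activates its transcription, was not called, with log2 fold changes of 0.39, 0.15 and 0.24. TFB2M (−0.63, −0.70 and 0.07), TEFM (0.01, 0.42 and −0.41) and POLG (−0.29, −0.23 and −0.06), a transcription factor, an elongation factor and the DNA polymerase of mitochondria, were not called either. TWNK, the replicative helicase, was lower in pXEN cells by 0.78 against nESCs (edgeR adjusted p = 0.00139) and by 0.60 against pESCs (edgeR adjusted p = 0.00596). MTERF4 and DNA2 were lower than in nESCs (−1.004 and −0.85), and MGME1, a mitochondrial exonuclease, stood higher in pXEN cells than in nESCs (0.34) and pESCs (0.83). POLRMT, the mitochondrial RNA polymerase, was not matched to a row.

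Of 64 mitochondrial ribosomal proteins tested, 1 was higher and 40 were lower in pXEN cells than in nESCs (median −0.60), 3 and 26 than in pESCs (−0.30), and 0 and 16 in pESCs than in nESCs (−0.27). The shares called were 64.1%, 45.3% and 25.0%, against 54.5%, 48.3% and 32.2% of all genes, and without pXEN line 2 the last comparison had 2 higher and 24 lower. MRPS27 and MRPL36 were the lowest called against nESCs (−1.82 and −1.80). Of 30 mitochondrial translation factors and aminoacyl-tRNA synthetases, 2 were higher and 20 lower in pXEN cells than in nESCs (median −0.58), 0 and 13 than in pESCs (−0.37), and 0 and 7 in pESCs than in nESCs (−0.15), or 73.3%, 43.3% and 23.3% called. TUFM, the mitochondrial elongation factor that brings tRNAs to the ribosome, fell from nESCs (213 ± 12.4 FPKM, SD, n = 2) to pESCs (153 ± 7.61 FPKM, n = 2) and pXEN cells (94.3 ± 6.85 FPKM, n = 3). Its log2 fold changes were −1.18, −0.69 and −0.49, all called (edgeR adjusted p = 4.8e-05, 0.00103 and 0.0145). VARS2, the mitochondrial valyl-tRNA synthetase, was lower than in nESCs in pXEN cells (−1.78) and pESCs (−1.01).

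Genes used as a measure of organelle content, such as import and carrier proteins, were 1 higher and 10 lower of 17 in pXEN cells against nESCs (median −0.67), 1 and 8 against pESCs (−0.44), and 0 and 4 in pESCs against nESCs (−0.20). The shares called were 64.7%, 52.9% and 23.5%, against 54.5%, 48.3% and 32.2% of all genes, and without pXEN line 2 the last comparison had 0 higher and 8 lower. TOMM20, an import receptor of the outer membrane, was lower in pXEN cells by 1.28 and 1.10. Of the ADP/ATP carriers, SLC25A6 was lower in pXEN cells than in nESCs (−1.30), while SLC25A5 was higher than in nESCs (1.26) and pESCs (2.30). Of 7 regulators of mitochondrial biogenesis, 1 was higher and 2 lower in pXEN cells in either comparison (medians 0.04 and −0.20), and 1 was higher and 2 lower in pESCs against nESCs (−0.13), which is 42.9% called in each, and 2 were higher and 3 lower in pXEN cells than in nESCs without pXEN line 2. PPRC1, a coactivator, was lower in pXEN cells by 0.82 and 0.69. PPARGC1A, the best known coactivator of this group, had 22 to 178 counts and was lower in pESCs than in nESCs by 2.53 on the log2 scale (edgeR adjusted p = 0.0168), and its pXEN differences of −1.31 and 1.21 were not called.

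**Figure D5:**
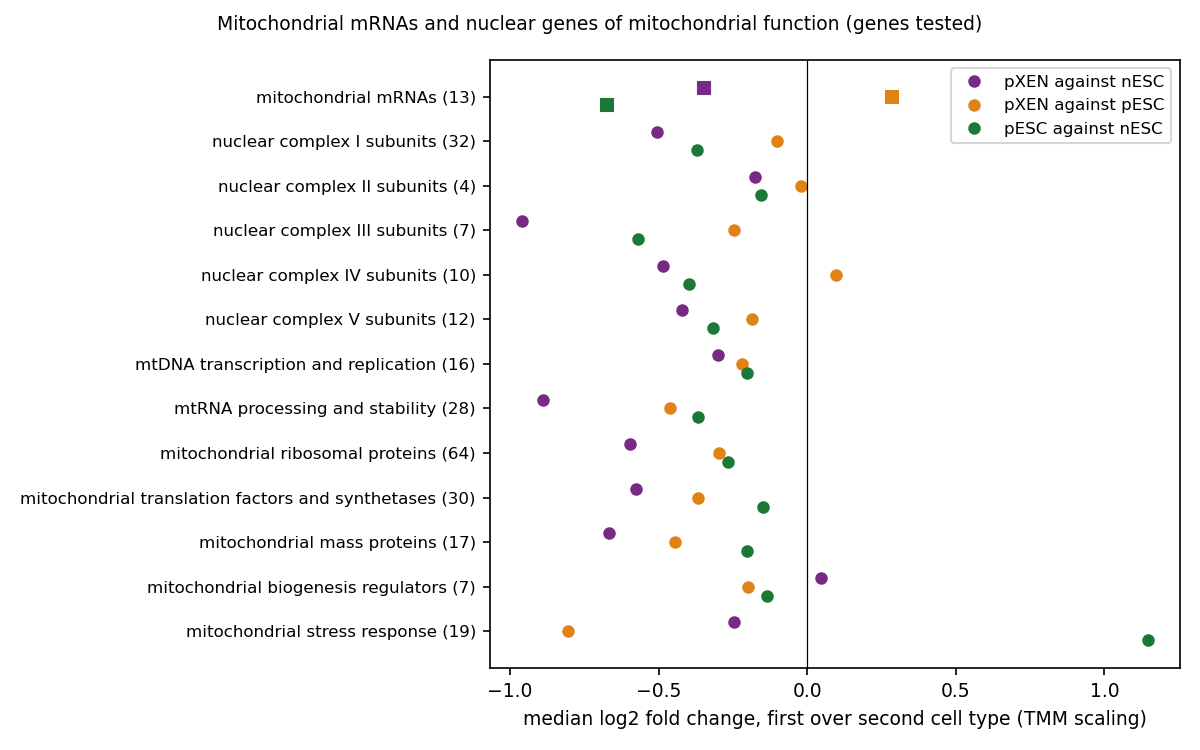
Median log2 fold change of the mitochondrial mRNAs (squares) and of lists of nuclear genes for mitochondrial function (circles), with the number of genes tested, in the 3 comparisons. The list for RNA processing lies at −0.89 in pXEN cells against nESCs, the mitochondrial mRNAs are at 0.29 in pXEN cells against pESCs, and the stress list is at 1.15 in pESCs against nESCs.

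Of 19 tested genes of the mitochondrial stress response, which joins the targets of ATF4 to the chaperones and proteases of the matrix, 7 were higher and 7 lower in pXEN cells than in nESCs (median −0.25). Against pESCs 2 were higher and 10 lower (median −0.81), and 9 were higher and 4 lower in pESCs than in nESCs (median 1.15). Of all genes, 28.3% and 26.2%, 23.9% and 24.4%, and 19.0% and 13.3% were higher and lower in these comparisons. The chaperone HSPD1 was lower than in nESCs in pXEN cells (−1.96) and pESCs (−1.15), and its partner HSPE1 moved with it (−1.21 and −1.11). CHAC1, a target of ATF4, had 552, 217 and 557 counts in pXEN lines, 0 and 0 counts in nESC lines and 829 and 1127 counts in pESC lines. TRIB3, another target, had 75, 16 and 79 counts in pXEN lines, 0 and 2 counts in nESC lines and 365 and 434 counts in pESC lines. For both genes the nESC lines lay below and the pESC lines above the pXEN lines. ATF5 was lower in pXEN cells than in pESCs (−4.48).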

How the data were processed

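RNA of 7 cell lines was sequenced after depletion of rRNA. The submitters' processing notes name the aligner HISAT2 (version 2.0.5), the read counter featureCounts (version 1.5.0-p3) and the build Sscrofa10.2. The authors deposited a table of raw counts per gene and a table of FPKM per gene; the FPKM total behind each library was 0.913 to 1.08 times its summed counts. The strand setting and the treatment of reads on several genes or places are not given in the sources used here. The raw counts entered the quasi-likelihood test of edgeR (version 4.0.16; TMM; filterByExpr; all 7 libraries in 1 model; Benjamini-Hochberg adjustment over 17447 genes; threshold 0.05); DESeq2 (version 1.42.0) and limma (version 3.58.1) were alternatives. The biological coefficient of variation was 0.223, on 4 residual degrees of freedom. Shares were tested with exact permutation tests. Each line is 1 replicate, and replicate pairs differed by more than sampling noise (chi-square over degrees of freedom of 6.20 to 36.4). A floor of 3 counts was used, and intervals cover counting error only.

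The members and the nuclear gene lists were chosen with earlier results of these data known. All mitochondrial rows are accounted for. Of the nuclear genes, TFAM, POLRMT, TFB2M, TEFM, TWNK, POLG, LRPPRC, SLIRP, PPARGC1A and TUFM were always named, and otherwise names came from the 2 highest and 2 lowest called genes per list and comparison with a mean log2 CPM of at least 3. Symbols came from the files or from a table of Ensembl identifiers; 253 of 306 listed nuclear genes were matched and 246 tested. GATA4, FAP, SOX2, POU5F1 and NANOG were named as markers, and the tRNA genes numbered 9 and 10 after their values were seen. The fit scaled to the mitochondrial mRNAs was also added then. The edgeR p-values judge differences against a spread between lines that all 7 libraries share, so the pXEN lines also bear on calls between pESCs and nESCs. Those of the permutation tests come from reassigning lines to cell types. The main edgeR fit was tested on simulated counts for pXEN cells against nESCs only, with a common spread for all genes, and the other fits were not. Other scalings, filters, tools, fits and each line left out were tried as alternatives.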

Additional observations from a re-analysis of the deposited data

How the results depend on the processing

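The number of mitochondrial transcripts called stayed within 1.5 times the reported 15, 18 and 18 (pXEN cells against nESCs, pXEN cells against pESCs, pESCs against nESCs) under every scaling, filter, tool and fit tried, but not when lines were left out: it ranged from 4 to 22, 9 to 24 and 9 to 26. The called nuclear genes (158, 101 and 81) ranged from 110 to 179, 52 to 137 and 28 to 120. Leaving out pXEN line 2 gave the highest of each of these numbers. By class the calls moved further. Between pXEN cells and pESCs, limma on log2(FPKM + 1) called 2 mRNAs higher and 1 lower in place of 5 and 1. Between pESCs and nESCs, a fit of these groups alone called 12 mRNAs lower in place of 7. Between pXEN cells and nESCs, a block for the replicate number called 3 tRNA genes lower in place of 6. The calls on mRNAs scaled to their own mean (6, 7 and 1) ranged from 3 to 10, 3 to 11 and 0 to 7, and scaling to the sum in place of the geometric mean gave 3 between pESCs and nESCs, all lower in pESCs and without COX1, and 7 higher and 1 lower between pXEN cells and pESCs in place of 4 and 3. With lines left out, the difference in mitochondrial share ranged from −3.37 to −2.49, −1.74 to −0.857 and −1.83 to −1.44 points. As a share of summed FPKM it was −3.51 points for pXEN cells against nESCs and −2.81 points for pESCs against nESCs, and −0.693 points for pXEN cells against pESCs in place of −1.18, with pXEN line 2 above both pESC lines. The share of the mRNA counts did not overlap for 9, 13 and 13 mRNAs (9 to 12 with lines left out in the first, 13 to 13 in the others), and for 8 between pXEN cells and pESCs once ATP8, ATP6, ND4L and ND4 were left out, which leaves 9 to count. The log2 fold change of ND1 between pXEN cells and pESCs, 0.02, turned to −0.062 (upper-quartile scaling), −0.012 (limma on log2(FPKM + 1) and on log2(FPKM + 0.1)) and −0.0010 (these groups only), and ranged from −0.21 (without pXEN line 2) to 0.15 (without pXEN line 3) with lines left out; it was −0.054 without pESC line 1. That of ND2, 0.13, ranged from −0.076 (without pXEN line 2) to 0.25 (without pXEN line 3). The cause of these turns was not tested. Upper-quartile scaling moved the median of all genes by −0.16, −0.083 and −0.073. Of the values for single mRNAs and rRNAs under alternatives, 643 of 765 kept direction and side of the threshold.

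Replicate numbers are shared between groups, but lines with the same number did not deviate together (correlations of −0.0124 to 0.0695), so the number names a line only. With a replicate block, 12, 19 and 21 mitochondrial transcripts and 130, 75 and 68 nuclear genes were called. The total of 10408164 to 12995720 counts limits what the tRNA rows can show, many of which held few counts.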
